A study of Homo sapiens with 41 samples.

Results

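The 10 genes described here, FABP4, FABP5, ACSL1, ACSL3, ACACA, FASN, SCD, PLIN2, PNPLA2 and ANGPTL4, carry, make, store and release fatty acids, and they were taken by symbol from the 57773 genes of the deposited count table. All 10 were found. They were followed through RNA libraries of a layered model of the lung air sac that met gold nanoparticles for 24 h. The upper (apical) layer was cultured at the air-liquid interface and held A549 cells, an epithelial line from a lung adenocarcinoma, with differentiated THP1 cells, which derive from a monocytic leukaemia. The lower (basolateral) layer was submerged and held the endothelial line that the labels spell EA.hy296. Each layer gave 6 exposed groups, namely spheres 1000, spheres 500, rods 1000, rods 500, stars 1000 and stars 500, and an unexposed control, where the numbers come from the sample titles and have no stated unit. Every group had replicates 1, 2 and 3 except basolateral spheres 500, which had replicates 1 and 3, so that 41 libraries made up 14 groups.

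Long-chain fatty acids bind small carrier proteins inside the cell, of which FABP4 is best known from fat cells, macrophages and endothelium and FABP5 from epithelium and macrophages. Acyl-CoA synthetases such as ACSL1 and ACSL3 activate the acids by joining them to coenzyme A. New fatty acids are built by acetyl-CoA carboxylase (ACACA) and fatty acid synthase (FASN), and stearoyl-CoA desaturase (SCD) puts a double bond into them. Surplus acids are stored as triglyceride in lipid droplets, which PLIN2 coats and from which the lipase PNPLA2 releases them again. ANGPTL4 is a secreted inhibitor of lipoprotein lipase whose gene is known as a target of PPAR receptors and of hypoxia. In the lung these steps feed surfactant lipid synthesis in alveolar epithelium, and in macrophages they underlie lipid-laden foamy cells.

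Apical libraries held 5243388 to 11660653 counts and basolateral libraries 2751299 to 10538069. The unit of level is CPM, the counts of a gene in every 1000000 of its library, and 3 counts, taken as the detection floor, came to 0.257 to 0.572 CPM apically and 0.285 to 1.09 CPM basolaterally (counting error only). Markers of the labelled lines were in place in part. Of 12 epithelial markers ALDH1A1 measured 6267 to 9754 CPM apically, but the surfactant gene SFTPC had no read in 20 of 21 apical libraries and the lung transcription factor NKX2-1 had none in any. The endothelial cadherin CDH5 measured 530 to 1166 CPM basolaterally. Libraries stood apart in both layers. Apical libraries fell into 3 sets of 7 by KIT, a receptor that marks mast cells, although no mast cell line is named in the labels (760.005 to 973, 444 to 513 and 103 to 138 CPM). Replicates 2 and 3 of spheres 500 were both in the second set and replicates 2 and 3 of rods 500 both in the third, whereas every other apical group had 1 library in each. Basolateral libraries differed in apical markers by replicate number, as described below for SCD and PLIN2. In bulk RNA, fewer cells of a type and less RNA per cell cannot be told apart.

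The genes spanned a wide range of levels. Per kilobase of summed exon length (GENCODE 29), SCD was the highest in both layers, with a median of 496 CPM per kb over 21 apical libraries and 52.0 over 20 basolateral libraries. Apically ACSL3 (50.9 CPM per kb) and FASN (35.8) came next, followed by ACSL1 (16.8), FABP5 (16.04), ACACA (13.5), PLIN2 (9.71), PNPLA2 (5.07), ANGPTL4 (2.94) and FABP4 (0.898). The order was another one basolaterally, where FABP5 (29.8 CPM per kb) stood second, FASN (17.6) and ACSL3 (13.9) followed, and ANGPTL4 (8.21), PNPLA2 (7.81), ACACA (6.87) and ACSL1 (4.94) lay close together. FABP4 (2.82) and PLIN2 (0.699) were the lowest there. FABP4 rested on 2 to 22 reads in each apical library, at or under the floor in 5 of 21, so its apical values were near the limit of these data. Of 14 annotated pseudogene copies of FABP5 and SCD 1 had any reads, FABP5P3 with 7 in all, and how the counting shared reads among near-identical copies is not given in the sources used here.

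**Figure D1:**
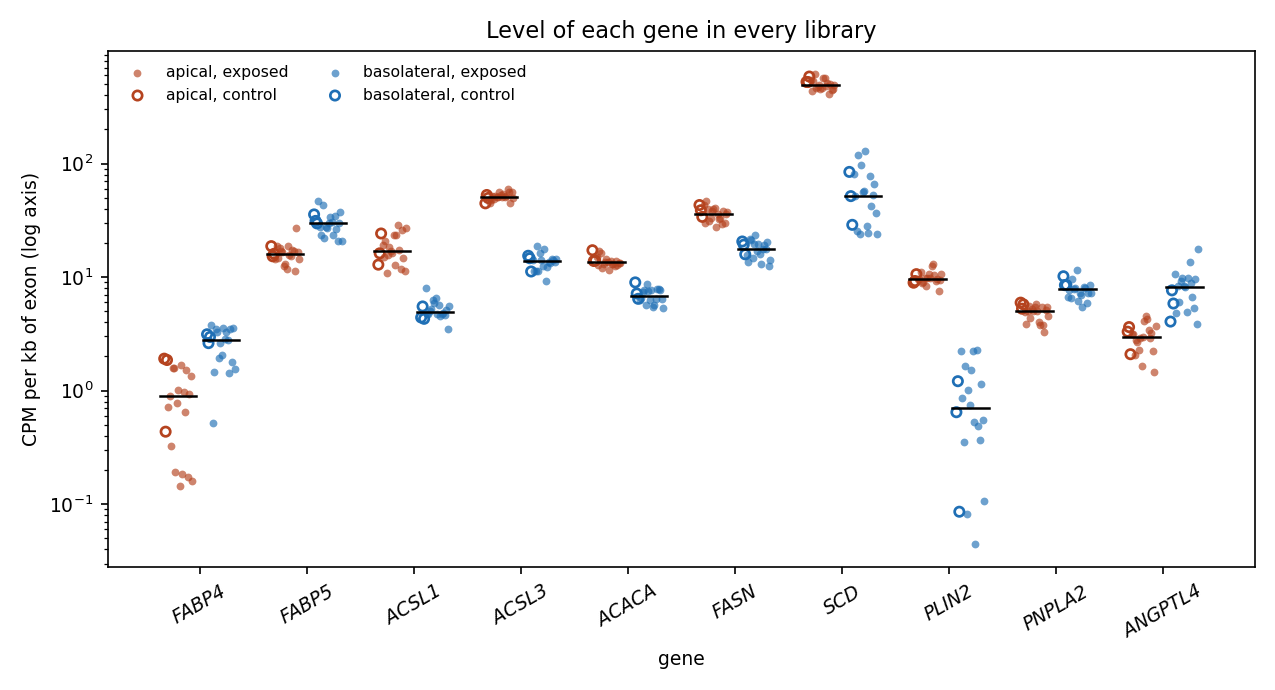
CPM per kilobase of exon (log axis) of the 10 genes in 21 apical libraries (red, left) and 20 basolateral libraries (blue, right); open circles are the control libraries, filled circles exposed ones, and black lines medians. SCD, at 496 CPM per kb apically and 52.0 basolaterally, is the highest gene in both layers, and PLIN2, at 9.71 apically and 0.699 basolaterally, is further apart between the layers than the other 9 genes.

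The layers were first set side by side without particles, to see where each step of fatty acid handling was expressed. In apical control cultures the desaturase SCD, the droplet coat PLIN2, both acyl-CoA synthetases and the 2 enzymes of fatty acid synthesis were higher than in basolateral control cultures. The carrier FABP5, the lipase PNPLA2 and the secreted inhibitor ANGPTL4 were lower. This made 6 members higher and 3 lower at an adjusted p under 0.05 in edgeR's quasi-likelihood test, while 26.7% of the 14198 genes tested were called higher and 27.4% lower, so most genes differed between the layers. The control libraries of the layers did not overlap for any of the 10 genes, against 65% of all genes tested. Of all genes 54.1% were called in either direction (59.6% at an unadjusted p under 0.05). Over all 41 libraries the 6 members called higher still did not overlap. There FABP5 did (up to 56.5 CPM apically, down to 43.2 CPM basolaterally), as did FABP4 (2.67 and 0.727), PNPLA2 (22.9 and 20.9) and ANGPTL4 (11.4 and 9.57).

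Among the carriers, FABP5 (chromosome 8, 81280363 to 81284777, plus strand, GRCh38) measured 38.9, 31.7 and 33.3 CPM in apical control replicates 1, 2 and 3, against 74.0, 64.9 and 61.7 CPM in basolateral control replicates. The apical values were all below the lowest basolateral one, a log2 fold change of -1.10 ± 0.12 (SE; adjusted p = 0.000258). FABP4 (chromosome 8, 81478419 to 81483263, minus strand) measured 2.67, 0.607 and 2.60 CPM in apical control replicates, against 4.38, 3.66 and 4.15 CPM in basolateral control replicates. These groups did not overlap either, but the log2 fold change of -1.23 ± 0.57 missed the threshold (adjusted p = 0.102; 95% interval -2.54 to 0.09). With all 41 libraries in a single fit FABP4 was lower in the 7 apical than in the 7 basolateral groups (-1.66 ± 0.29; adjusted p = 4.81e-06), and limma-voom also called it in the control libraries (adjusted p = 0.0386).

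Both activating synthetases were higher in the apical layer. ACSL1 (chromosome 4, 184755595 to 184826818, minus strand), which serves oxidation and storage in liver, muscle and fat, measured 80.9, 102 and 152 CPM in apical control replicates, against 27.7, 34.7 and 26.96 CPM in basolateral ones, a log2 fold change of 1.77 ± 0.27 (adjusted p = 0.00167). ACSL3 (chromosome 2, 222860934 to 222944639, plus strand), which sits on forming lipid droplets, measured 323, 383 and 360.0 CPM in apical control replicates, against 112, 106 and 81.1 CPM in basolateral ones. Its log2 fold change was 1.70 ± 0.14 (adjusted p = 8.48e-05). The smallest apical value of either gene was more than the largest basolateral value.

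The synthesis enzymes differed less. ACACA (chromosome 17, 37084988 to 37406818, minus strand), which makes the malonyl-CoA from which chains are built, measured 224, 180.3 and 182 CPM in apical control replicates, against 117, 93.3 and 83.7 CPM in basolateral ones (log2 fold change 0.85 ± 0.13; adjusted p = 0.00141). FASN (chromosome 17, 82078333 to 82098332, minus strand), which joins the chain, measured 404, 363 and 317 CPM in apical control replicates, against 193, 181 and 149 CPM in basolateral ones (0.91 ± 0.11; adjusted p = 0.000566). SCD (chromosome 10, 100347124 to 100364834, plus strand) stood much further apart, at 2807, 2798 and 3129 CPM in apical control replicates, against 453, 277 and 155 CPM in basolateral ones. Its log2 fold change was 3.18 ± 0.37 (adjusted p = 0.000870). The apical SCD values lay close together and the basolateral ones did not.

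PLIN2, the droplet coat found in most tissues (chromosome 9, 19108375 to 19149290, minus strand), measured 45.4, 47.0 and 54.0 CPM in apical control replicates, against 3.28, 6.16 and 0.437 CPM in basolateral ones. The log2 fold change was 3.73 ± 0.66 (adjusted p = 0.00505), the largest of the 10 in size, with a wide 95% interval of 2.11 to 5.36. PNPLA2 (chromosome 11, 818902 to 825573, plus strand), the lipase that starts triglyceride breakdown, went the other way, at 22.9, 20.2 and 22.1 CPM in apical control replicates, against 39.1, 32.6 and 32.8 CPM in basolateral ones (-0.82 ± 0.13; adjusted p = 0.00165). ANGPTL4 (chromosome 19, 8363289 to 8374373, plus strand) measured 8.20, 9.01 and 5.20 CPM in apical control replicates, against 10.1, 18.96 and 14.5 CPM in basolateral ones. It was lower apically (-1.11 ± 0.31; adjusted p = 0.0179), but this call was lost without basolateral control replicate 2 (-0.89; adjusted p = 0.0767).

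Promoter sequence is shown for SCD and PLIN2, which stood furthest apart between the layers, and for ANGPTL4, which differed in the other direction. Each window runs from 250 bases before to 50 bases after a transcription start (RefSeq, GRCh38.p14), and 7 of the 10 genes had an entry. Capitals mark matches, on either strand, to the CCAAT box (CCAAT), the GC box (GGGCGG) and the core hypoxia element (ACGTG).
SCD, chr10:100346983-100347282, plus strand: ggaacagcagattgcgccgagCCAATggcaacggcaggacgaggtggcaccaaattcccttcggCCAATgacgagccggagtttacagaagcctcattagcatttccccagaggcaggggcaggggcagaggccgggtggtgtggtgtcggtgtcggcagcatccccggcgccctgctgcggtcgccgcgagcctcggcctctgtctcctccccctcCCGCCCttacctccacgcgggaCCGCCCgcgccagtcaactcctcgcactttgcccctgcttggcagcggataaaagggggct
PLIN2, chr9:19127443-19127742, minus strand: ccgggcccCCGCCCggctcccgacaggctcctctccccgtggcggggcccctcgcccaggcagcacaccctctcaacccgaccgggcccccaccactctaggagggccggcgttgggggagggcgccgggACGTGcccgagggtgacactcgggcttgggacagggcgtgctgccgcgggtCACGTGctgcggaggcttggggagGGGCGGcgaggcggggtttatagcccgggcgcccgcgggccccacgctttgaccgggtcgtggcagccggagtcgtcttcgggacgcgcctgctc
ANGPTL4, chr19:8363905-8364204, plus strand: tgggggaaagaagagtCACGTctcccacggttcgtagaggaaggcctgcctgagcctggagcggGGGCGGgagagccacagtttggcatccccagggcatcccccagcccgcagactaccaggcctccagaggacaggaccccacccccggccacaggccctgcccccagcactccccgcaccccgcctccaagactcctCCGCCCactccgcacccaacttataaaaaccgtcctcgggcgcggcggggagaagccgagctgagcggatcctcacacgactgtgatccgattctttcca
The SCD window held 2 CCAAT boxes, 229 and 186 bases before the start, and 2 GC boxes. PLIN2 had 2 GC boxes and 3 matches to ACGTG, of which 2 overlap on opposite strands in a single CACGTG, and ANGPTL4 had 2 GC boxes and 1 match to ACGTG. Over 35116 RefSeq promoter windows 34.6% held CCAAT, 45% GGGCGG and 21.4% ACGTG. The nuclear receptor core AGGTCA (13.8% of windows) and the sterol element TCACNCCAC (1.13%) were searched too, and these letters were not in the 3 windows.

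The basolateral levels of SCD and PLIN2 moved with apical marker genes. The summed CPM of the 12 epithelial markers was 13002 to 20618 over the apical libraries and 386 to 4479 over the basolateral ones, and SFTPC and NKX2-1 among them were at or near 0 in both. In the basolateral control the sum was 2684, 1640 and 499.996 CPM in replicates 1, 2 and 3. Over 20 basolateral libraries the correlation with that sum, on log2(CPM + 1), was r = 0.95 for SCD, 0.90 for PLIN2, 0.73 for FABP5 and 0.65 for ACSL3, where the libraries share their replicate structure. With the sum of 12 macrophage markers (908 to 1278 CPM apically, 42.6 to 316 CPM basolaterally) it was 0.92 for SCD, 0.92 for PLIN2 and 0.79 for FABP5, and with the mast cell sum 0.91 for SCD and 0.83 for PLIN2. With the endothelial sum it was -0.84 for SCD and -0.75 for PLIN2, so these values do not single out a cell type. Set against the apical median, the basolateral libraries of replicate 1 held a median of 14.8% for ALDH1A1, 17.03% for SCD and 16.9% for PLIN2. Those of replicate 3 held 1.57% for ALDH1A1, 5.09% for SCD and 1.104% for PLIN2. FASN differed little by this measure, with medians of 55.2% in replicate 1 and 44.4% in replicate 3, and ACSL3 stood at 30.3% and 24.3%. Rods 1000 replicate 3 was apart from most other libraries of its number, with 9.80% for ALDH1A1, 309.6 CPM of SCD and 7.67 CPM of PLIN2. Stars 1000 replicate 3 was apart as well, with an epithelial marker sum of 1065 CPM and 464 CPM of ALDH1A1. An edgeR fit of all basolateral groups with the epithelial marker level as a covariate called 0 of the 10 genes against control or between particles. The part of these marker levels in the basolateral values of SCD and PLIN2 themselves was not tested.

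**Figure D2:**
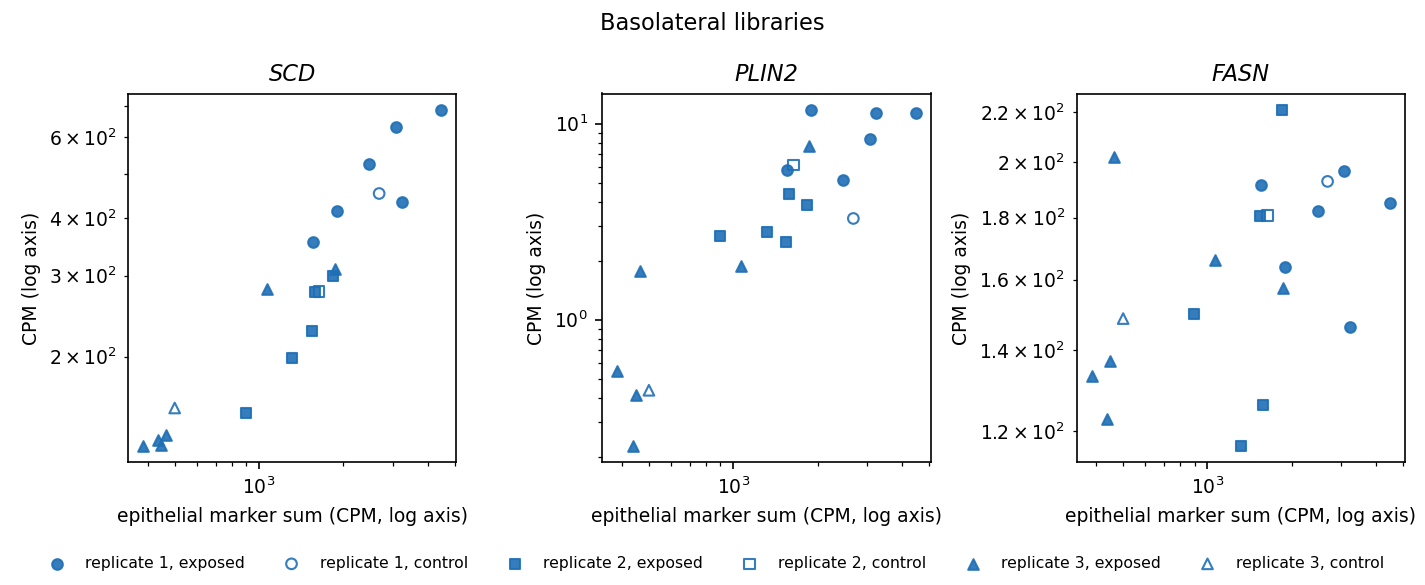
CPM of SCD, PLIN2 and FASN in 20 basolateral libraries (log axis) against the summed CPM of 12 epithelial markers in the same library (log axis); the symbol gives the replicate number and open symbols are control libraries. SCD (r = 0.95) and PLIN2 (r = 0.90) climb with the marker sum, and FASN stays within 117 to 221 CPM.

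Other genes of the pathway were taken from lists. Between the control layers 26.7% of all genes tested were called higher and 27.4% lower in edgeR. Of the fatty acid synthesis list 11 of 17 genes tested were higher and 1 was lower in the apical than in the basolateral control, with a median log2 fold change of 1.60 against -0.01 over all genes. The desaturases FADS2 (506 against 75.7 CPM; 2.60 ± 0.24, adjusted p = 0.000205 in edgeR) and FADS1 (1055 against 233 CPM; 2.04 ± 0.17) were among them, as were SREBF1, the transcription factor of lipid synthesis (166 against 46.6 CPM; 1.69 ± 0.17), and ELOVL6, which lengthens palmitate (96.9 against 20.1 CPM; 2.13 ± 0.35). SCD5, the second human stearoyl-CoA desaturase, was the gene that was lower (15.9 against 31.8 CPM; -1.14 ± 0.23). The others called higher were ACLY, ACACB, ACSS2, ME1, INSIG1, NR1H3 and MLXIPL.

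Droplet and lipolysis genes were mixed, with 5 of 14 higher and 2 lower (median 0.60). In either direction 54.1% of all genes were called, so this list was called about as often as the background. HILPDA and G0S2, which are both known to inhibit PNPLA2, measured 57.9 against 10.3 CPM (2.37 ± 0.27) and 30.2 against 2.94 CPM (3.23 ± 0.81) in the apical against the basolateral control, and the monoglyceride lipase MGLL measured 59.9 against 23.5 CPM (1.21 ± 0.18). PLIN3, another droplet coat, was lower apically (35.6 against 44.7 CPM; -0.49 ± 0.14), as was DGAT2, which makes triglyceride (3.85 against 7.62 CPM; -1.10 ± 0.38), while SOAT1 and LIPA, which act on cholesterol esters, were higher. Of uptake and activation genes 8 of 14 were higher and 2 lower (median 0.52). The scavenger receptor CD36, which takes up fatty acids, was higher (82.7 against 7.92 CPM; 3.26 ± 0.42) and LIPG, the endothelial lipase, lower (9.44 against 62.9 CPM; -2.89 ± 0.16). SLC27A2, ACSL4, DBI, LPL, LMF1 and VLDLR were among the others called higher, and SLC27A4 the other called lower. Receptors of the PPAR family and oxidation genes were higher in 12 of 16 and lower in 0 (median 0.96), with PPARG at 23.8 against 2.30 CPM. Among the others were PPARA, PPARD, RXRA, PPARGC1A, CPT2, SLC25A20, ACADVL, HADHA, PDK4 and UCP2. Of 10 hypoxia genes 4 were higher (VEGFA, CA9, EGLN3 and PDK1) and 1, KDM3A, was lower (median 0.32), which is near the background as well. Apical markers were higher too, in 9 of 9 epithelial and 10 of 10 macrophage genes tested, and the part of these marker levels in the list counts was not tested.

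The next question was whether particles changed any of the 10 genes in the apical layer. No difference passed the threshold: 0 of 60 tests in 6 comparisons with control had an adjusted p under 0.05 in edgeR, and 1 of the 60 had an unadjusted p under 0.05. Over all genes 0% of 14004 to 14206 were called in each comparison, and 1.11 to 3.24% had an unadjusted p under 0.05. This fit had no term for the library sets. With the sets as a block in an edgeR fit of all apical groups, 2.57 to 6.43% of 15225 genes had an unadjusted p under 0.05, and 0 were called. DESeq2 called 0 of the 10 genes as well, and 12 genes in all over the 6 comparisons, and limma-voom called 0 genes. Fold changes of FASN, ACACA, SCD and ACSL3 were between -0.25 and 0.18 on the log2 scale, with 95% intervals that together ran from -0.58 to 0.46. The 6 comparisons share the same 3 control libraries.

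FABP5 in rods 1000 had the smallest p of the apical comparisons with control. It measured 26.1, 26.99 and 24.5 CPM in rods 1000 replicates 1, 2 and 3, against 38.9, 31.7 and 33.3 CPM in control replicates. The groups did not overlap, and of the 18 apical libraries outside rods 1000 17 were above its highest value and 1, at 23.3 CPM, was below its lowest. At least 17 of these libraries were above rods 1000 for 0.147% of 14288 genes with a mean of at least 1 CPM apically, where gene and group were singled out after their values were seen. The log2 fold change was -0.42 ± 0.13 (unadjusted p = 0.0108, adjusted p = 1.00 in edgeR; 1.51% of all genes had an unadjusted p under 0.05 there). The highest apical value of FABP5, 56.5 CPM, was in stars 500 replicate 1, while replicates 2 and 3 of that group measured 29.9 and 34.4 CPM. FABP5 was 1 of 2 genes of the 10 whose rods 1000 libraries did not overlap the control, beside SCD, against 7.07% of all genes.

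ANGPTL4 was apart in rods 500, at 10.1, 11.4 and 10.6 CPM in replicates 1, 2 and 3, against 8.20, 9.01 and 5.20 CPM in control replicates. Each of these 3 libraries exceeded all 18 other apical libraries, which ranged from 3.60 to 9.26 CPM, as held for 4 of the same 14288 genes (0.028%). This gene and group, too, were singled out after their values were seen, and the difference from control did not pass (0.54 ± 0.26; unadjusted p = 0.0726, adjusted p = 1.00 in edgeR). Counts behind ANGPTL4 were 34 to 110 per apical library. PNPLA2 did not overlap the control in rods 500 either, so that 2 of the 10 genes did so there, against 7.08% of all genes. In rods 500, picked out above by its ANGPTL4 values, the 10 hypoxia genes had a median log2 fold change of 0.29 over control. Of these genes 0 were called or had an unadjusted p under 0.05 there, and a link to the ANGPTL4 values was not tested. Over the 6 apical comparisons with control the median of the hypoxia list ran from -0.19 to 0.29, so rods 500 was the highest of them. That of all genes ran from -0.003 to 0.005. Replicates 2 and 3 of rods 500 were in the low KIT set, as was replicate 3 of the control, and the part of the sets in the hypoxia values was not tested. The summed CPM of 11 endothelial markers was 56.3 to 80.5 in rods 500, against 32.6 to 36.7 in the apical control and 1884 to 3043 in the basolateral libraries. The median log2 fold change of these markers was above 0 in all 6 apical comparisons with control (0.73 to 1.53). Over the 21 apical libraries r between ANGPTL4 and the endothelial sum was 0.30 on log2(CPM + 1). The part of these markers in the ANGPTL4 values was not tested.

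PNPLA2 was lower than the apical control on average in each particle group, at 17.7 ± 2.502 (spheres 1000), 19.5 ± 2.38 (spheres 500), 20.9 ± 1.33 (rods 1000), 16.5 ± 2.59 (rods 500), 16.1 ± 4.43 (stars 1000) and 19.3 ± 1.82 CPM (stars 500; SD, n = 3 each), against 21.7 ± 1.35 CPM in control. The log2 fold changes of -0.06 to -0.43 all missed the threshold, and their smallest unadjusted p was 0.0505 (rods 500). In spheres 1000 PNPLA2 was the 1 gene of the 10 that did not overlap the control (7.13% of all genes), and in spheres 500 there was 0 of 10 (9.78%). SCD (2911 ± 188 CPM), ACACA and FABP4 had their highest mean in the control as well, which made 4 of 10 genes, against 13.1% of all genes. These means share the 3 control libraries. For SCD the exposed libraries lay below the control ones without overlap in rods 1000 (2657, 2412 and 2471 CPM), in stars 1000 (2756, 2709.5 and 2213 CPM) and in stars 500 (2387, 2616 and 2447 CPM). The log2 fold changes of SCD there were -0.22, -0.19 and -0.22. In both stars groups ACACA was the other gene whose libraries did not overlap the control, making 2 of 10 genes in each, against 6.88% of genes in stars 1000 and 5.88% in stars 500.

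**Figure D3:**
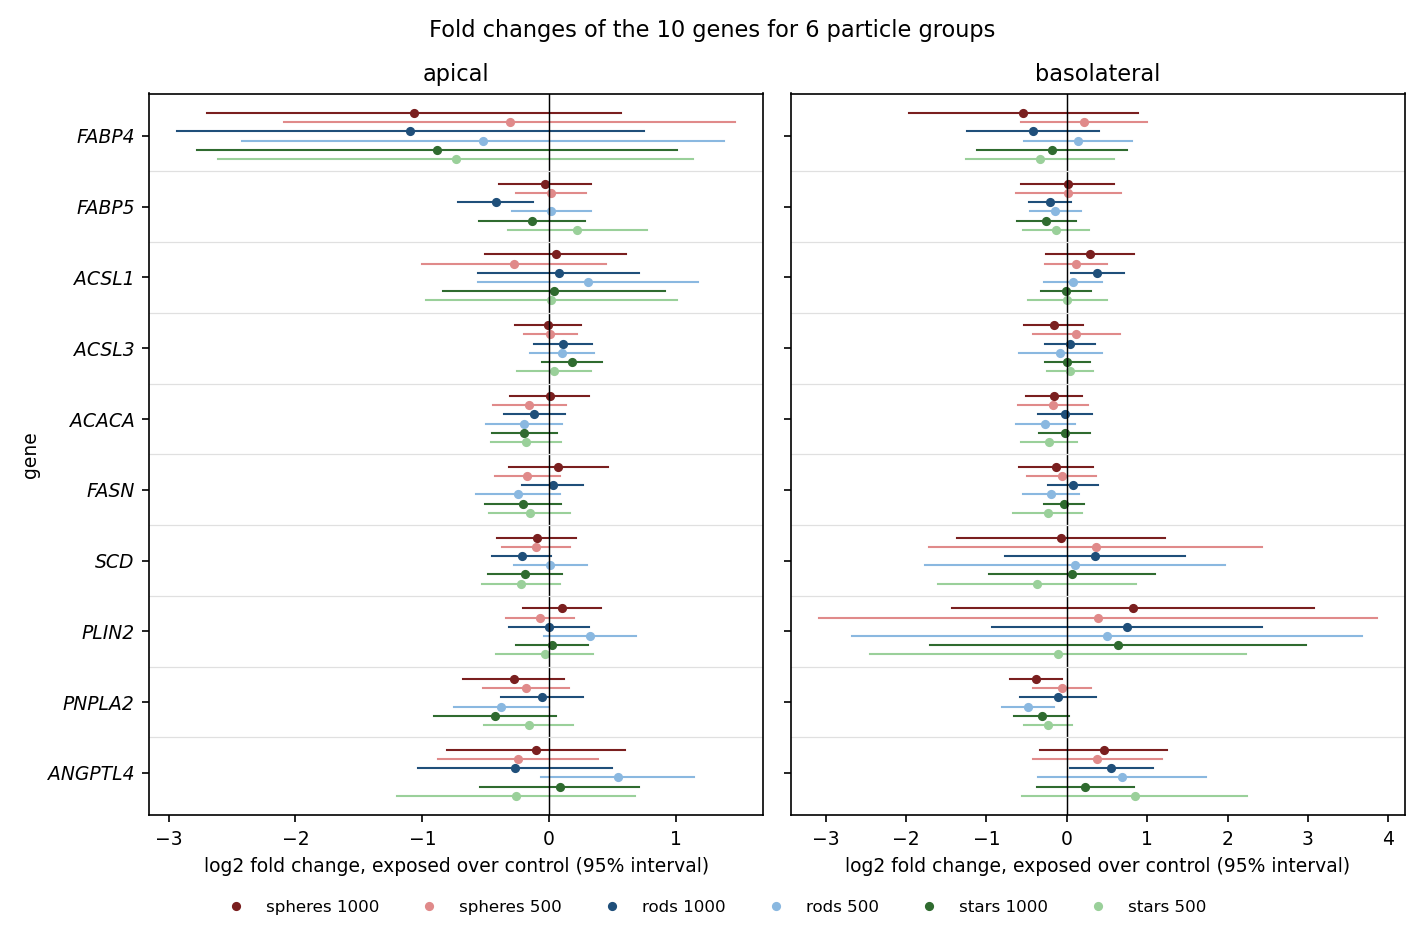
Log2 fold change of each gene in 6 exposed groups over the control of its layer, with 95% intervals from edgeR; colours give shape and number. Intervals are narrow for ACSL3, ACACA and FASN in both layers, wide for apical FABP4 and for basolateral PLIN2 and SCD, and 0 of 120 tests passed the adjusted threshold.

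Apical ACSL1 and PLIN2 differed between the library sets. ACSL1 measured 129.7 to 179.7 CPM in the 7 libraries of the third set, which was low in KIT, and 68.8 to 120.0 and 70.8 to 115 CPM in the first and second sets. The third set did not overlap the others, and the share of all genes with such a separation was not computed. PLIN2 measured 48.6 to 66.4 CPM in the third set, against 38.7 to 52.8 in the first and 46.4 to 50.4 in the second, which overlap. The summed level of 9 mast cell markers, of which FCER1A was at 0 in 13 of 21 libraries, was 168 to 204 CPM in the third set, 1229 to 1476 in the first and 682 to 764 in the second. Over the 21 apical libraries, which share these sets, r with that sum was -0.81 for ACSL1 and -0.72 for PLIN2. KIT, by which the sets were cut, is in the sum (760.005 of 1229 CPM in apical control replicate 1). These values therefore restate the split and are no separate evidence. With the adipocyte marker sum r was -0.69 for ACSL1 and -0.67 for PLIN2, and with the epithelial sum -0.58 and -0.44. It follows from the lack of overlap that ACSL1 was highest in the third-set library of each group with a library in every set, as in the control (152 CPM in replicate 3, against 80.9 and 102).

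**Figure D4:**
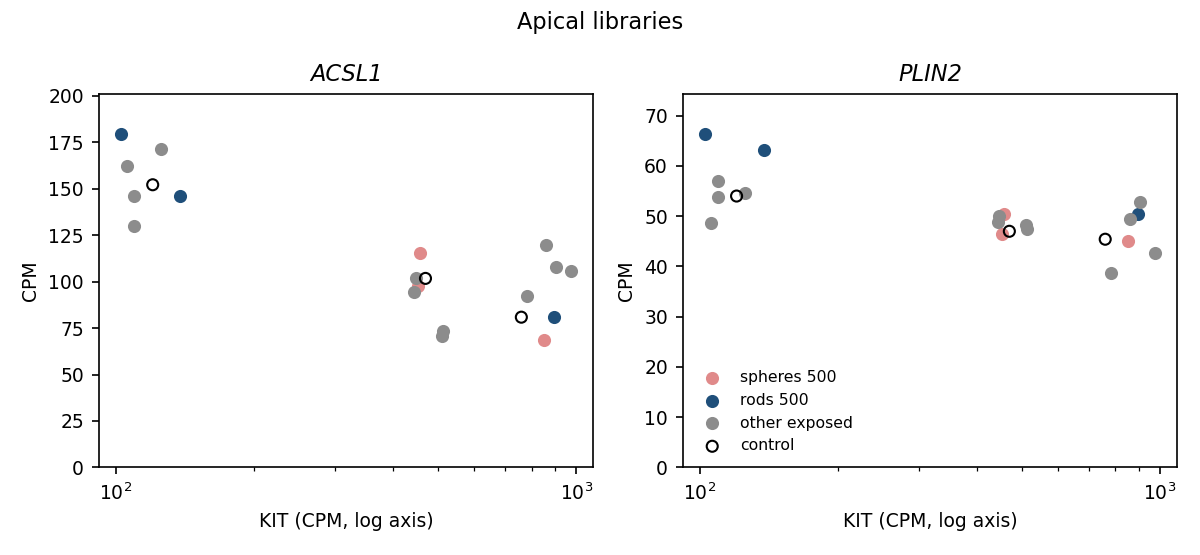
CPM of ACSL1 and PLIN2 in 21 apical libraries against KIT (CPM, log axis); colours mark spheres 500, rods 500 and the other exposed groups, and open circles the control. The 7 libraries with KIT of 103 to 138 CPM hold 129.7 to 179.7 CPM of ACSL1, above the other 14, and rods 500 has 2 libraries among them while spheres 500 has none. The share of all genes apart in this way was not computed.

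The pathway lists gave 0 calls against the apical control as well. An unadjusted p under 0.05 was found for 1 of 84 tests of droplet genes (BSCL2, which shapes droplets, in rods 500; -0.80 ± 0.34), for 1 of 96 of PPAR and oxidation genes (PPARG in spheres 1000; -0.41 ± 0.17) and for 0 of 102 of synthesis and 0 of 84 of uptake genes. Of hypoxia genes 3 of 60 tests did so, all in spheres 500, namely VEGFA (-0.28 ± 0.11), NDRG1 (-0.42 ± 0.17) and the glucose transporter SLC2A1 (-0.31 ± 0.13).

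In the basolateral layer, too, 0 of 60 tests against control passed in edgeR, and 4 had an unadjusted p under 0.05. Among all genes 0% of 13030 to 13659 were called in each of the 6 comparisons and 0.952 to 2.98% had an unadjusted p under 0.05. DESeq2 called 0 of the 10 genes and 10 genes in all over the 6 comparisons, and limma-voom called 0. Intervals were wide for PLIN2, from -3.09 to 3.86 over the 6 comparisons, and for SCD, from -1.77 to 2.43.

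PNPLA2 had the smallest basolateral p. In rods 500 it measured 27.8, 26.6 and 20.9 CPM in replicates 1, 2 and 3, against 39.1, 32.6 and 32.8 CPM in control replicates, a log2 fold change of -0.48 ± 0.14 (unadjusted p = 0.00929, adjusted p = 1.00 in edgeR). In spheres 1000 it measured 25.8, 29.8 and 25.3 CPM (-0.38 ± 0.14; unadjusted p = 0.0267). Of all genes 1.07% in rods 500 and 1.49% in spheres 1000 had an unadjusted p under 0.05. PNPLA2 did not overlap the shared control in rods 500, spheres 1000 or stars 1000, as 1 of the 10 genes each time, against 5.87%, 6.22% and 6.78% of all genes, which is near the background. It was the 1 gene of 10 with its highest mean in the control of this layer (8.83% of all genes; log2 fold changes -0.06 to -0.48), and rods 1000 replicate 2, at 44.5 CPM, was the highest basolateral library.

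ANGPTL4 and ACSL1 in rods 1000 did not pass either. ANGPTL4 measured 24.4, 20.8 and 20.1 CPM in rods 1000 replicates, against 10.1, 18.96 and 14.5 CPM in control replicates (0.55 ± 0.23; unadjusted p = 0.0385), and ACSL1 measured 39.8, 37.5 and 40.8 CPM, against 27.7, 34.7 and 26.96 CPM (0.38 ± 0.15; unadjusted p = 0.0274). Neither overlapped the control and both had an adjusted p of 0.998, while 8.76% of all genes did not overlap and 2.98% had an unadjusted p under 0.05 there. ANGPTL4 was the 1 gene of 10 with its lowest mean in the control of this layer (14.6% of all genes), and the 6 log2 fold changes ran from 0.23 to 0.84. The spread within groups was large, as in stars 500, with 24.1, 9.57 and 43.6 CPM in replicates 1, 2 and 3. FABP4 was above the control without overlap in spheres 500 (4.90 and 4.57 CPM in replicates 1 and 3, against 3.66 to 4.38 CPM), as 1 of 10 genes, where with 2 libraries 12.9% of all genes did not overlap. In stars 500 0 of the 10 genes were apart from the control (5.48% of all genes). Of the lists 0 genes were called basolaterally, and the lowest adjusted p in edgeR was 0.998. CD36 in rods 1000 (0.74 ± 0.33) was the 1 of 79 tests of uptake genes with an unadjusted p under 0.05, and ACADVL and INSIG2 were among the genes of the other lists with one. In rods 1000 the epithelial marker sum was 2473, 1839 and 1867 CPM, against 2684, 1640 and 499.996 CPM in control.

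**Figure D5:**
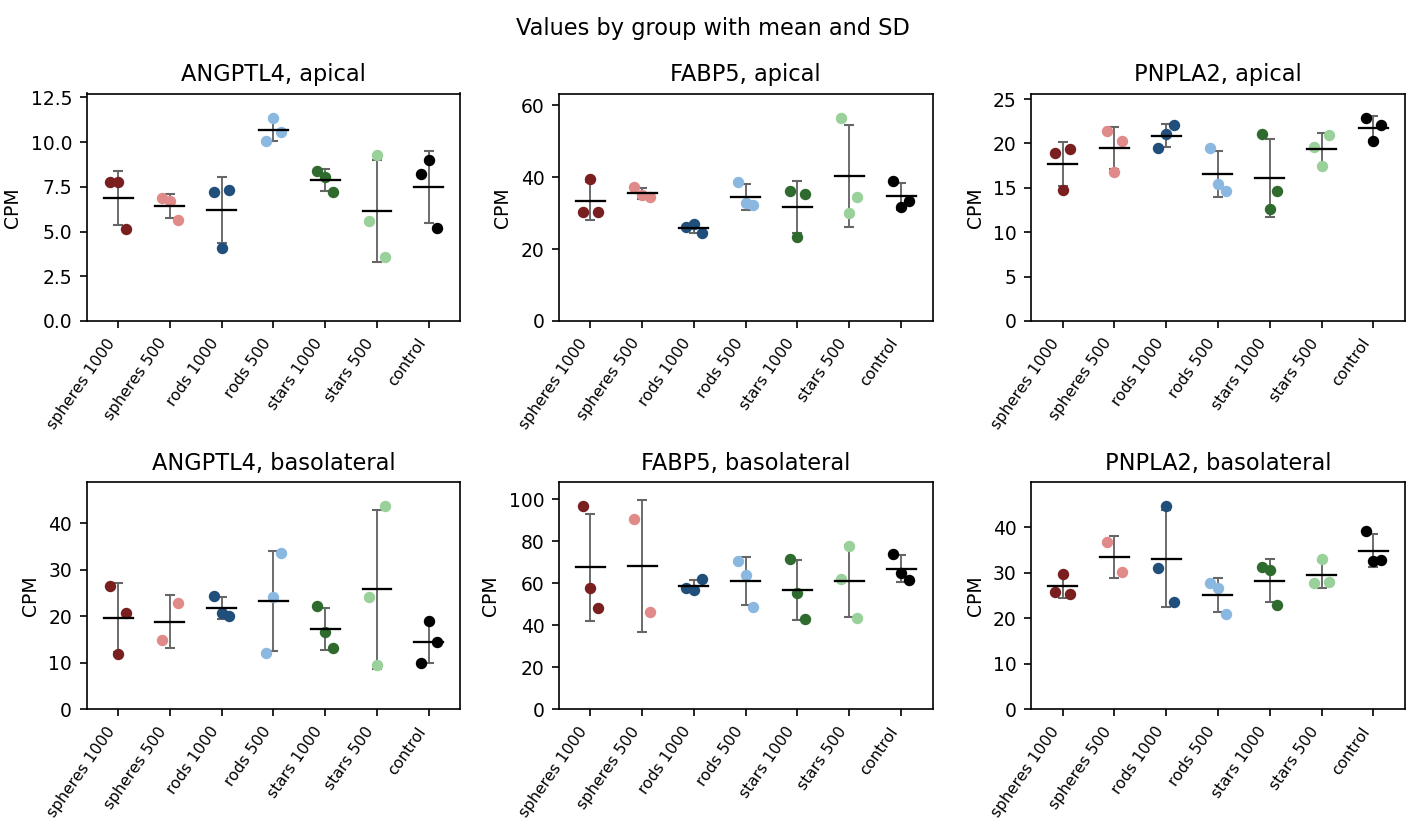
CPM of ANGPTL4, FABP5 and PNPLA2 in every library of the apical (top) and basolateral (bottom) groups, exposed groups left of control; black lines are means and grey bars SD. ANGPTL4 in apical rods 500 (10.1 to 11.4 CPM) is above all other apical libraries, as for 0.028% of genes. This gene and group were singled out after their values were seen, and the difference from control did not pass the adjusted threshold. FABP5 in apical rods 1000 lies at 24.5 to 26.99 CPM, and PNPLA2 has its highest mean in the control of both layers.

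Particles were then compared with each other, by shape at a matched number and by number within a shape. In 9 apical comparisons 0 of 87 tests passed in edgeR, with 5 at an unadjusted p under 0.05, and in 9 basolateral ones 0 of 90 passed, with 2. FABP4 fell under the count filter in the 3 apical comparisons among the 1000 groups. Over all genes 0% were called in each, and 0.679 to 5.64% apically and 0.397 to 2.49% basolaterally had an unadjusted p under 0.05. DESeq2 called 71 genes in all apically and 6 basolaterally and limma-voom 2 and 0, with 0 of the 10 genes among them. In apical spheres 500 ANGPTL4 measured 6.88, 6.69 and 5.64 CPM, against 10.1, 11.4 and 10.6 CPM in rods 500, a log2 fold change of -0.79 ± 0.21 (unadjusted p = 0.00556, adjusted p = 0.878). It was 1 of 10 genes without overlap, against 11.2% of all genes, and 5.12% of them had an unadjusted p under 0.05. With the library sets as a block the value was -0.62 ± 0.32 (adjusted p = 1.00). PLIN2 measured 45.0, 46.4 and 50.4 CPM in spheres 500, against 50.3, 63.2 and 66.4 CPM in rods 500 (-0.40 ± 0.15; unadjusted p = 0.0258), and the sets as a block gave -0.26 ± 0.12. Without rods 500 replicate 1 PLIN2 passed (-0.52 ± 0.12; adjusted p = 0.0283), where 904 of 14294 genes were called, and the 2 libraries left are both of the low KIT set while no spheres 500 library is.

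Between numbers, FABP5 in rods 1000 was below rods 500 (26.1, 26.99 and 24.5 CPM, against 38.7, 32.7 and 32.1 CPM; -0.44 ± 0.12; unadjusted p = 0.00838). ANGPTL4 was lower in rods 1000 than in rods 500 too (7.21, 4.06 and 7.30 CPM, against 10.1, 11.4 and 10.6 CPM; -0.81 ± 0.28; unadjusted p = 0.0214). With FASN they made 3 of 10 genes without overlap between rods 1000 and rods 500, against 6.94% of all genes, and 1.5% had an unadjusted p under 0.05. FABP5 in apical spheres 1000 stood above rods 1000 (0.39 ± 0.15; unadjusted p = 0.0292; 2.54% of all genes under 0.05), and with PNPLA2 it was 1 of 2 genes without overlap there (8.34%). Basolaterally ACSL1 in rods 1000 was above stars 1000 (29.9, 30.2 and 29.1 CPM in stars 1000; 0.39 ± 0.15; unadjusted p = 0.0221, with 2.49% of all genes under 0.05) and PNPLA2 in spheres 500 above rods 500 (36.8 and 30.2 CPM in spheres 500; 0.42 ± 0.17; unadjusted p = 0.0477, with 0.488% of all genes under 0.05). Each was the 1 gene of 10 without overlap, against 6.84% and 8.96% of all genes. The differences in this paragraph with a p had an adjusted p of 1.00 in edgeR.

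Other pairs of particle groups that did not overlap had no unadjusted p under 0.05. In the apical layer these were ACSL3 between spheres 1000 and stars 1000 (322.7 to 375 against 378 to 430.4 CPM; 9.87% of all genes), FASN between rods 1000 and stars 1000 (359.9 to 376 against 274 to 356 CPM; 5.7%) and ANGPTL4 between rods 500 and stars 500 (4.92%), as 1 gene of 10 each. Basolaterally they were PNPLA2 between spheres 1000 and spheres 500 (9.24%), and FABP4 and ACSL1 between rods 1000 and rods 500 (4.94%).

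Whether a particle acted unlike in the 2 layers was tested as the difference of the exposed-to-control log2 fold changes, apical minus basolateral. In 6 such tests for each gene 0 of 60 passed in edgeR, and 0 had an unadjusted p under 0.05, against 1.94 to 3.26% of all genes. DESeq2 called 8 genes in all and limma-voom 0, again with 0 of the 10. ANGPTL4 in rods 1000 came closest (-0.80 ± 0.42; unadjusted p = 0.0760). In stars 500 its difference was larger but less certain (-1.10 ± 0.76). Its 6 differences ran from -0.11 to -1.10, with 95% intervals from -2.76 to 1.05.

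Within a layer some of the genes varied together, as a description over libraries that share groups and sets. FASN and ACACA had r = 0.86 over 21 apical and 0.76 over 20 basolateral libraries (log2(CPM + 1)). SCD and PLIN2 had r = 0.85 basolaterally, where both had r of 0.83 or more with the epithelial, macrophage and mast cell sums, and ACSL1 and PLIN2 had r = 0.67 apically. Among expressed genes, those most like a member on log2 CPM included, apically, DRAM1 (r = 0.96) for ACSL1, FAT1 (0.91) and HERC2 (0.91) for FASN, LAMA5 (0.90) and HERC2 (0.89) for ACACA, and HLA-L (0.93) and DNAJB9 (0.90) for PLIN2. Basolaterally they included the complement gene C5 (0.96) for SCD, LITAF (0.92) and PRKCB (0.92) for PLIN2, SREBF2 (0.73), the transcription factor of sterol synthesis, for FASN, and RASSF8 (0.88) and MMP10 (0.87) for ANGPTL4.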

How the data were processed

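Library input was 1 µg of total RNA in a stranded kit, per the labels' protocols. The authors deposited raw read counts per gene for 41 libraries. Per the submitters' processing notes the build was GRCh38.p13. Of the aligner, counting program, strand setting and annotation, the sources used here give nothing. CPM was computed from library totals, and exon lengths and positions came from GENCODE 29. Groups were compared pairwise with edgeR 4.0.16 (TMM scaling, filterByExpr, robust quasi-likelihood test, group as the only term) in R 4.3.3, with Benjamini-Hochberg adjustment over all genes tested and a threshold of 0.05. Alternatives used DESeq2 1.42.0, limma-voom (limma 3.58.1), other scalings and filters, a replicate block, library sets and a marker covariate, and left out each library in turn. Scripts were tested on simulated counts. The 10 genes and the lists were chosen with earlier results of these data known. All 10 are described, called list genes and those with an unadjusted p under 0.05 are named, apart from some genes that are not reported here, and the genes most like a member are those of highest Pearson correlation of log2 CPM among genes averaging at least 3. The design text calls replicates biological; no separate source is given for each, so p-values measure the spread between these libraries. Same-numbered libraries deviated together in every pair (correlation over 0.1) in some comparisons only, for example apical spheres 1000 and control (0.361, 0.172 and 0.494). In apical stars 1000 and stars 500 replicate 3 was in the second KIT set and replicate 2 in the third, the reverse of the control. The replicate block therefore joined apical libraries of unlike sets there.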

Additional observations from a re-analysis of the deposited data

How the results depend on the processing

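The counts of the 10 genes called were recomputed under other scalings, filters, tools and fits, and without each library in turn, giving 135 values for 6 counts, of which 134 stayed within 1.5 times the reported one. The exception was the count between particles in the apical layer, which was 1 without apical rods 500 replicate 1 (PLIN2) and ranged from 0 to 1 over the libraries left out; leaving libraries out gave 0 against control in both layers and 0 between particles basolaterally. Between the control layers the count ranged from 8 to 9 of 10 over the libraries left out and from 9 to 10 under the other settings, and ANGPTL4 (-0.89; adjusted p = 0.0767 in edgeR without basolateral control replicate 2) was the gene lost. FABP4 was called by limma-voom (-1.57; adjusted p = 0.0386) and with all 41 libraries (-1.66; adjusted p = 4.81e-06). Of the values for single genes 321 kept direction and side of the threshold and 0 reversed. These cover only the comparisons with an unadjusted p under 0.05 in edgeR and the 10 genes between the control layers. For results chosen by a low p and refitted on the same libraries a reversal was unlikely from the start, so this count is no separate evidence. The replicate block changed no call among the 10 genes, with 0 called against control or between particles in either layer, although over all genes it gave 33 calls apically and 1 basolaterally in the 6 comparisons each with control, and 118 and 89 in the 9 comparisons each between particles. FABP4 in both layers and PLIN2 basolaterally were at 2 reads in their lowest library, which leaves their fold changes imprecise.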
